A study of Homo sapiens with 8 samples.

Results

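Integrins and the proteins of focal adhesions were examined as a set of 44 genes in 2 human cancer cell lines, each with and without knockdown of the nuclear kinase VRK1. The genes were chosen by name, as 18 integrin subunits and 26 proteins that link integrins to the actin cytoskeleton or signal from them. Of the 44 genes, 42 had at least 1 named probe on the array, and there was none for CRK or ITGA11. Of these, 37 had a probe bright enough to be tested, among 9449 genes tested in all. They were represented by 73 of the 24526 probes, and 52 of the 73 passed the filter on dim probes.

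Integrins are receptors made of an alpha and a beta chain that hold a cell to its extracellular matrix. The alpha chain largely sets which ligand is bound, and the tail of the beta chain binds talin and kindlin, which activate the receptor and couple it to actin. At the focal adhesion that forms around clustered integrins, focal adhesion kinase and Src phosphorylate adaptors such as paxillin and p130Cas, while the complex of ILK, PINCH and parvin joins beta chains to actin. Cells of different origin carry different sets of alpha and beta chains and so adhere to different matrices.

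The study had 8 Illumina HumanRef arrays in 4 groups of 2. HT1080 is an established line from a human fibrosarcoma, a tumour of connective tissue, and MDA-MB-231 is an established line from a human breast adenocarcinoma. The groups were HT1080 with siVRK1, HT1080 with control siRNA, MDA-MB-231 with siVRK1 and MDA-MB-231 with control siRNA. siVRK1 was a single siRNA sequence, number 308, so an effect of that sequence on other transcripts cannot be told apart from an effect of VRK1 loss. The control was a Scramble siRNA, and all 4 groups were transfected with Lipofectamine RNAiMAX in DMEM with 10% fetal bovine serum and gentamicin. Cells grew for 24 h before transfection, and RNA was taken 42 h after it. The labels do not say whether the 2 arrays of a group came from separate cultures, so each p-value measures only the spread between these arrays, which may be technical. All levels below are the deposited log2 intensities. The median probe read 5.93 on each array, near the floor. The values still contain background, so differences of dim probes are understated, and levels are compared only within 1 probe.

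The probe for VRK1, the targeted gene, read 6.57 and 6.51 in HT1080 siVRK1 arrays, against 7.84 and 7.88 in HT1080 controls. In MDA-MB-231 it read 6.23 and 6.74 with siVRK1, against 7.93 and 7.61 in controls. Both siVRK1 arrays lay below both controls in each line. The log2 change was -1.32 (SE 0.17, adjusted p = 0.0240 in limma) in HT1080 and -1.28 (SE 0.17, adjusted p = 0.0117) in MDA-MB-231, so that 40.1% and 41.1% of the control intensity remained in those lines. The HT1080 call was lost when any 1 of the 4 HT1080 arrays was left out (adjusted p 0.267 to 0.338) and the MDA-MB-231 call without HT1080 control array 1 or without control array 2 (adjusted p = 0.0519 for each), while the change stayed between -1.54 and -1.03. The 2 arrays of a group correlated at 0.991 to 0.995 over all probes, and the SD of their difference was 0.175 to 0.181 log2 in the HT1080 groups and 0.239 to 0.269 in the MDA-MB-231 groups.

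The lines were checked against their defining markers, where 6.08 log2 is the intensity a probe had to reach, as a group mean, to be kept. Vimentin, an intermediate filament of mesenchymal cells, read 11.4 to 11.9 in HT1080 and 11.6 to 12.1 in MDA-MB-231. The keratin KRT19 read 5.63 to 5.80 in HT1080 arrays, all under that level, and 10.7 to 11.2 in MDA-MB-231 arrays, and KRT7 divided the lines in the same way. The other 6 genes listed as markers of MDA-MB-231, VIM, KRT8, KRT18, CD44, MSN and EGFR, were above the level on all 8 arrays. Between the controls KRT8 differed by -1.42, while KRT18 (-0.17) and EGFR (-0.02) did not pass and CD44 was higher in HT1080, at 0.88 (adjusted p = 0.000262). N-cadherin, CDH2, read 10.7 to 10.9 in HT1080 and 6.11 to 6.29 in MDA-MB-231. Of the other mesenchymal markers, COL6A1 and COL6A2 were higher in control HT1080, by 0.41 (adjusted p = 0.0267) and 0.87 (adjusted p = 0.000165). FN1 and THY1 were under the level on all 8 arrays, COL1A1 was above it on 1 HT1080 and 1 MDA-MB-231 array, and PDGFRB was lower in HT1080. The epithelial genes EPCAM, ESR1, CLDN3 and CLDN4 were under the level on all arrays, and CDH1 was above it on 0 HT1080 and 2 MDA-MB-231 arrays, at up to 6.17. Of the leukocyte genes, PTPRC and CD3E were under it on all arrays, LAPTM5 and CD68 were above it on all 8, and CD14 was above it on 1 HT1080 array and on 4 MDA-MB-231 arrays, where it read 7.71 to 8.18. Of the endothelial genes, CDH5, VWF and KDR were under it on all arrays and PECAM1 was above it on all 8, at 6.16 to 6.66. The part of these genes in the differences between the lines was not tested.

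By brightest probes the member with the largest difference in favour of HT1080 was PARVB, and the 1 member called with siVRK1 was PDLIM7, so their promoter sequences are shown here. They are the 250 bases upstream of annotated RefSeq starts in GRCh38.p14, 5′ to 3′ on the strand of the gene, with GC boxes (GGGCGG or its reverse complement CCGCCC, the core to which Sp1 family factors bind) in capitals. PARVB has 2 separate starts in that table, at chr22:44024052-44024301 (plus strand) and chr22:44068856-44069105 (plus strand), and PDLIM7 has the window chr5:177497605-177497854 (minus strand).
PARVB, upstream start: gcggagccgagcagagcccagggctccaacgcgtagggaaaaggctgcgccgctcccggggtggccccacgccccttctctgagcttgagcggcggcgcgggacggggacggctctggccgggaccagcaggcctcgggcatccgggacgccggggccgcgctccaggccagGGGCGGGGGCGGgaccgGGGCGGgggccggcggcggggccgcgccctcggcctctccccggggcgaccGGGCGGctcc
PARVB, downstream start: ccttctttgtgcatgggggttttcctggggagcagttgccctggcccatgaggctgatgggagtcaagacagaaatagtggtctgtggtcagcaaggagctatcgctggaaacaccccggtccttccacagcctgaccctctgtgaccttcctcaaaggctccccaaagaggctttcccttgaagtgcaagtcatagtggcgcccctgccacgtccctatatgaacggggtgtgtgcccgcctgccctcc
PDLIM7: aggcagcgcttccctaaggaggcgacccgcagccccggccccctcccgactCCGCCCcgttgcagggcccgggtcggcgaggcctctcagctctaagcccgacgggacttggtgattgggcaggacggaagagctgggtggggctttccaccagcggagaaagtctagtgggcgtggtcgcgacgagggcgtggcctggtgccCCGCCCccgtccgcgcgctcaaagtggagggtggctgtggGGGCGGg
The upstream PARVB window was 81.6% G and C and held 4 GC boxes, while the downstream one was 58.4% G and C and held 0. The PDLIM7 window was 72% G and C and held 3 GC boxes. None of the 3 windows held an AP-1 match (TGANTCA, the site of Fos and Jun dimers) or a CArG box, the site of serum response factor, on either strand. Only 34 of the 44 members had a window in that table, and ITGB4 was not among them. Of the 66 windows of these members, 34 (51.5%) held a GC box, against 42.6% of all 35116 windows. An AP-1 match was in 2 of the 66 (3.03%, in BCAR1 and LIMS1), against 6.57% of all windows, and a CArG box in 5 (7.58%, in FHL2, ITGB6 and TES), against 1.16%. Windows of 1 gene can overlap, a match is not a bound site, and which PARVB start gave the RNA was not measured.

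The first question was whether loss of VRK1 changed adhesion genes in each line. None of the 37 members tested passed the threshold of adjusted p under 0.05 in HT1080 or in MDA-MB-231. By the same test 0.307% of all genes were called in HT1080 and 0.995% in MDA-MB-231, so 0 of 37 is close to the background. At an unadjusted p under 0.05 there were 10 members in HT1080, against 981 of 9449 genes, and 6 in MDA-MB-231, against 1243. The median change of the members was -0.07 in HT1080 and 0.06 in MDA-MB-231, against 0.00 over all genes in both. The median size of change was 0.16 and 0.14 for members in those lines, against 0.11 and 0.11 over all genes. The siVRK1 and control arrays did not overlap for 22 members in HT1080, 8 higher and 14 lower, against 45.0% of all genes, and for 14 in MDA-MB-231, 10 higher and 4 lower, against 39.3% of all genes.

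The intervals show what size of change in probe intensity these arrays could have missed. The values still contain background, so a change in RNA can be larger, also for probes not far above the filter level. Probes under that level in a line, such as ITGB4 in HT1080 and PARVB and TNS1 in MDA-MB-231, understate a change. Their intervals do not limit a change in RNA there. On its brightest probe, the 95% interval of every one of the 37 members lay within 1 log2 unit of 0 in both lines. The end farthest from 0 was 0.97 in HT1080, for ITGB2, and 0.91 in MDA-MB-231, for TNS3. The second kept TES probe changed by 0.59 in MDA-MB-231 (adjusted p = 0.212 in a limma fit over all kept probes) and by -0.01 in HT1080. The first of these is larger than the change of any brightest probe there. Intervals of further probes were not computed. The standard error of a change was 0.13 log2 at the median and ran between 0.10 and 0.22, and 2 arrays a group limit the precision. In cell culture RNA, a change in RNA per cell and a change in the share of cells that carry it cannot be told apart.

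**Figure D1:**
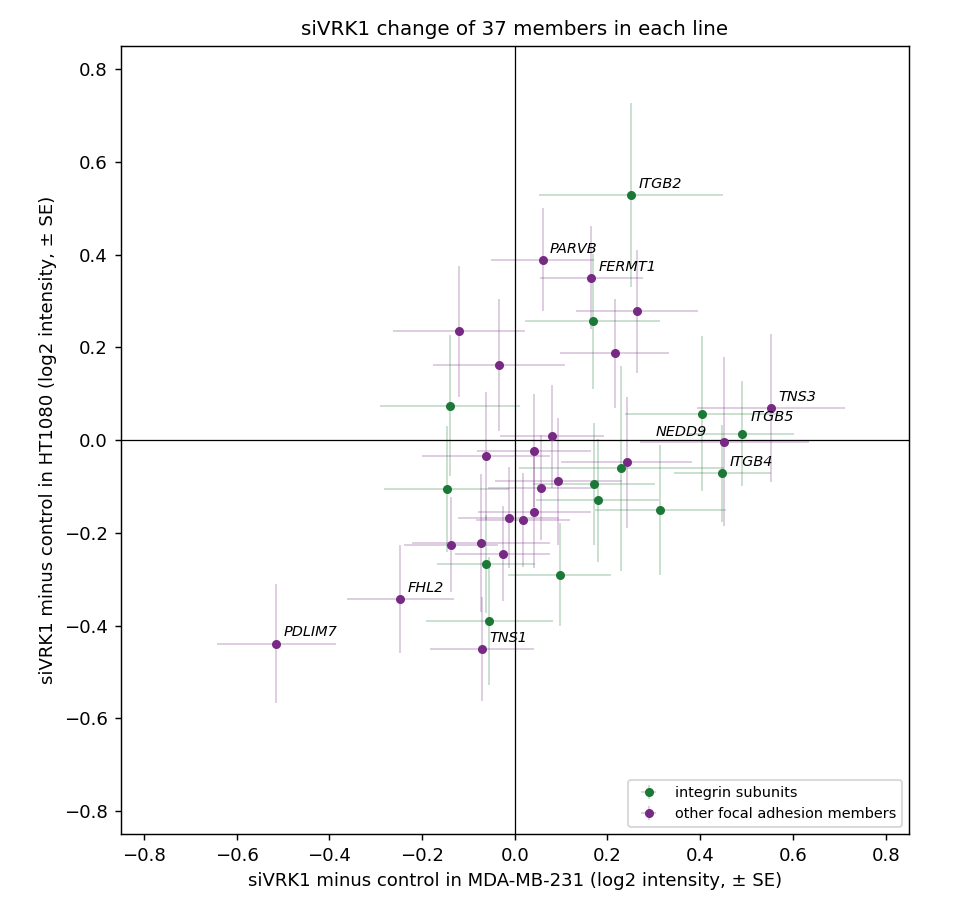
Change in log2 intensity with siVRK1 (siVRK1 minus control, ± SE) for the 37 members tested, in HT1080 on the vertical axis and in MDA-MB-231 on the horizontal axis. Green points are integrin subunits and purple points the other members. PDLIM7 lies at the lower left, below 0 in both lines, while ITGB4, ITGB5, NEDD9 and TNS3 are to the right near 0 on the vertical axis; no member passed adjusted p under 0.05 in a single line.

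Among the integrin subunits, the smallest p-values in MDA-MB-231 belonged to the beta chains ITGB5 and ITGB4. ITGB5, the partner of the alpha V chain in a vitronectin receptor, read 11.23 and 11.34 in MDA-MB-231 siVRK1 arrays, against 10.88 and 10.71 in controls. The siVRK1 arrays lay above both controls, with a difference of 0.49 (SE 0.11, adjusted p = 0.0809) that did not pass. Its second probe differed by -0.02 in the same arrays. In HT1080 the first probe read 10.79 and 10.62 with siVRK1, against 10.71 and 10.67 in controls, which overlap.

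ITGB4, which pairs with ITGA6 in the laminin receptor of hemidesmosomes, read 8.59 and 8.46 in MDA-MB-231 siVRK1 arrays, against 8.12 and 8.03 in controls. The groups did not overlap, and the difference was 0.45 (SE 0.10, adjusted p = 0.0817). A second kept probe differed by 0.31 (adjusted p = 0.297 in a fit over all kept probes). In HT1080 the first probe read 5.60 and 5.65 with siVRK1, against 5.72 and 5.68 in controls, all under the filter level. The leukocyte beta chain ITGB2 had the largest change of a subunit in HT1080, at 0.53 (SE 0.20, adjusted p = 0.388). It read 8.84 and 8.63 in HT1080 siVRK1 arrays, against 8.25 and 8.17 in controls, and 8.34 and 8.92 in MDA-MB-231 siVRK1 arrays, against 8.15 and 8.61 in controls. Its groups did not overlap in HT1080 and did overlap in MDA-MB-231.

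Of the linkers, 2 tensins stood out by their p-values, and each in 1 line. TNS3, an adaptor that binds beta chain tails and actin, read 10.07 and 10.46 in MDA-MB-231 siVRK1 arrays, against 9.53 and 9.90 in controls, a difference of 0.55 (SE 0.16, adjusted p = 0.148), or 0.36 without siVRK1 array 2. In HT1080 it differed by 0.07. TNS1, its relative, read 6.86 and 6.87 in HT1080 siVRK1 arrays, against 7.26 and 7.38 in controls, a difference of -0.45 (SE 0.11, adjusted p = 0.181). In MDA-MB-231 it differed by -0.07, with all 4 arrays under the filter level. The siVRK1 and control arrays did not overlap for either tensin in the line where the difference was larger. The kindlin FERMT1, which binds beta chain tails beside talin, read 7.02 and 7.09 in HT1080 siVRK1 arrays, against 6.77 and 6.64 in controls. That difference was 0.35 (SE 0.11, adjusted p = 0.310), and in MDA-MB-231 it was 0.17.

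Among the adaptors, NEDD9, a scaffold related to p130Cas, read 7.99 and 7.34 in MDA-MB-231 siVRK1 arrays, against 7.18 and 7.25 in controls. The SD of the 2 siVRK1 arrays was 0.46, as large as the difference of 0.45 between the group means (SE 0.18, adjusted p = 0.317). That difference was 0.13 (adjusted p = 0.828) without siVRK1 array 1 and 0.77 (adjusted p = 0.0486) without siVRK1 array 2. In HT1080 NEDD9 was under the filter level on all 4 arrays. PARVB, the beta parvin that binds ILK and actin, read 8.38 and 8.48 in HT1080 siVRK1 arrays, against 8.0 and 8.08 in controls, a difference of 0.39 (SE 0.11, adjusted p = 0.25). In MDA-MB-231 it read 5.73 and 5.73 with siVRK1, against 5.77 and 5.56 in controls, near the floor of the array. FHL2, a LIM protein found at adhesions and in the nucleus, read 11.39 and 11.29 in HT1080 siVRK1 arrays, against 11.64 and 11.72 in controls. That difference was -0.34 (SE 0.12, adjusted p = 0.340). In MDA-MB-231 FHL2 differed by -0.25, and its second probe differed by -0.44 in HT1080 and by -0.36 in MDA-MB-231.

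When the changes in the 2 lines were averaged, 1 of the 37 members passed (2.7%), against 2.54% of all genes. It was PDLIM7, a PDZ and LIM protein of actin bundles whose window is printed above. PDLIM7 read 7.54 and 7.5 in HT1080 siVRK1 arrays, against 8.03 and 7.89 in controls, and 7.45 and 7.25 in MDA-MB-231 siVRK1 arrays, against 8.0 and 7.73 in controls. Both siVRK1 arrays were below both controls in each line. The average change was -0.48 (SE 0.09, 95% interval -0.68 to -0.27, adjusted p = 0.0298), from -0.44 in HT1080 (SE 0.13, adjusted p = 0.260) and -0.51 in MDA-MB-231 (SE 0.13, adjusted p = 0.101). Members called in neither line singly can pass here because the average uses all 8 arrays.

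A fall of PDLIM7 in both lines was seen on 1 of its 3 kept probes. The second probe read 7.64 and 7.72 in HT1080 siVRK1 arrays, against 7.45 and 7.64 in controls, and 7.48 and 7.11 in MDA-MB-231 siVRK1 arrays, against 7.83 and 7.23 in controls. The third read 7.03 and 7.24 in HT1080 siVRK1 arrays, against 6.58 and 7.67 in controls, and 6.84 and 6.62 in MDA-MB-231 siVRK1 arrays, against 6.92 and 6.89 in controls. Their average changes were -0.05 and -0.08, and with the mean of the kept probes in place of the brightest the change was -0.20 and did not pass (adjusted p = 0.427). The call also ended when any 1 of the 4 HT1080 arrays (adjusted p 0.114 to 0.155), MDA-MB-231 siVRK1 array 2 (0.0696) or MDA-MB-231 control array 1 (0.0566) was left out. Whether the 3 probes detect different transcripts was not tested.

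**Figure D2:**
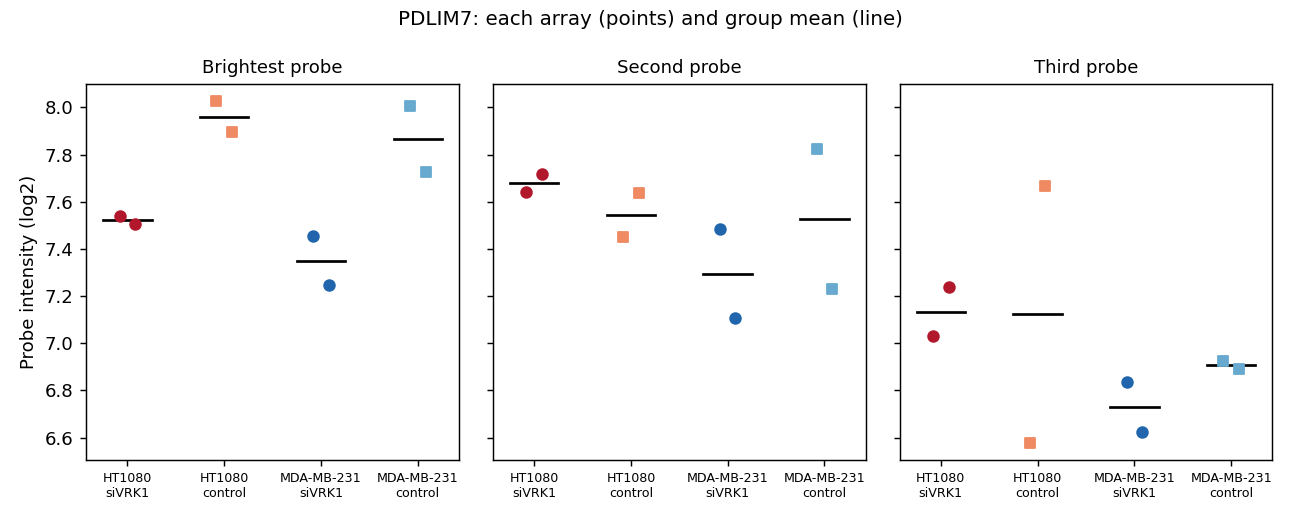
Log2 intensity (vertical axis) of the 3 kept PDLIM7 probes, 1 panel each, on each array (points) with the group mean (line), for the 4 groups of 2 arrays. On the brightest probe the siVRK1 arrays lie below the controls of both lines. On the third this is so in MDA-MB-231 alone, and on the second in neither line.

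The difference between the lines in the response to siVRK1 was tested directly, as the change in HT1080 minus that in MDA-MB-231. None of the 37 members passed, nor did any of the 9449 genes (0.00%), although 5 members and 582 genes had an unadjusted p under 0.05. The smallest adjusted p of a member was 0.569, for ITGB4, whose changes were -0.07 in HT1080 and 0.45 in MDA-MB-231, a difference of -0.52 (SE 0.15). ITGB5 followed with a difference of -0.48 (SE 0.16, adjusted p = 0.721). Of the 14 integrin subunits tested, 10 had a negative difference, with a median of -0.30. The other focal adhesion members leaned the same way, with 16 of 23 negative and a median of -0.10. Over all genes the median was 0.00, and 49.8% had a positive difference. On their brightest probes all 5 beta chains tested had a positive change in MDA-MB-231, with a median of 0.25, and 2 of the 5 did in HT1080. The second kept ITGB5 probe changed by -0.02 in MDA-MB-231 and 0.13 in HT1080, a difference of 0.15. ITGB4 was under the filter level in HT1080, so the sign of its change there says little. These counts and medians are descriptions, since no subunit passed the test of the difference.

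The second question was how the lines themselves differ. Between control HT1080 and control MDA-MB-231 arrays, 28 of the 37 members tested passed, 13 higher and 15 lower in HT1080. By the same test 53.7% of all genes were called, 26.2% higher and 27.5% lower in HT1080, against 75.7% of the members. A member whose probe was bright in only 1 line entered the test through that line and had to differ, so the share of members called is a description. Without the filter, 27 of the 42 members with a probe were called, against 30.0% of all genes. The arrays of the lines did not overlap for 30 of the 37, 13 higher and 17 lower in HT1080, against 77.4% of all genes. The median size of the difference was 0.56 log2 over the members and 0.37 over all genes.

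**Figure D3:**
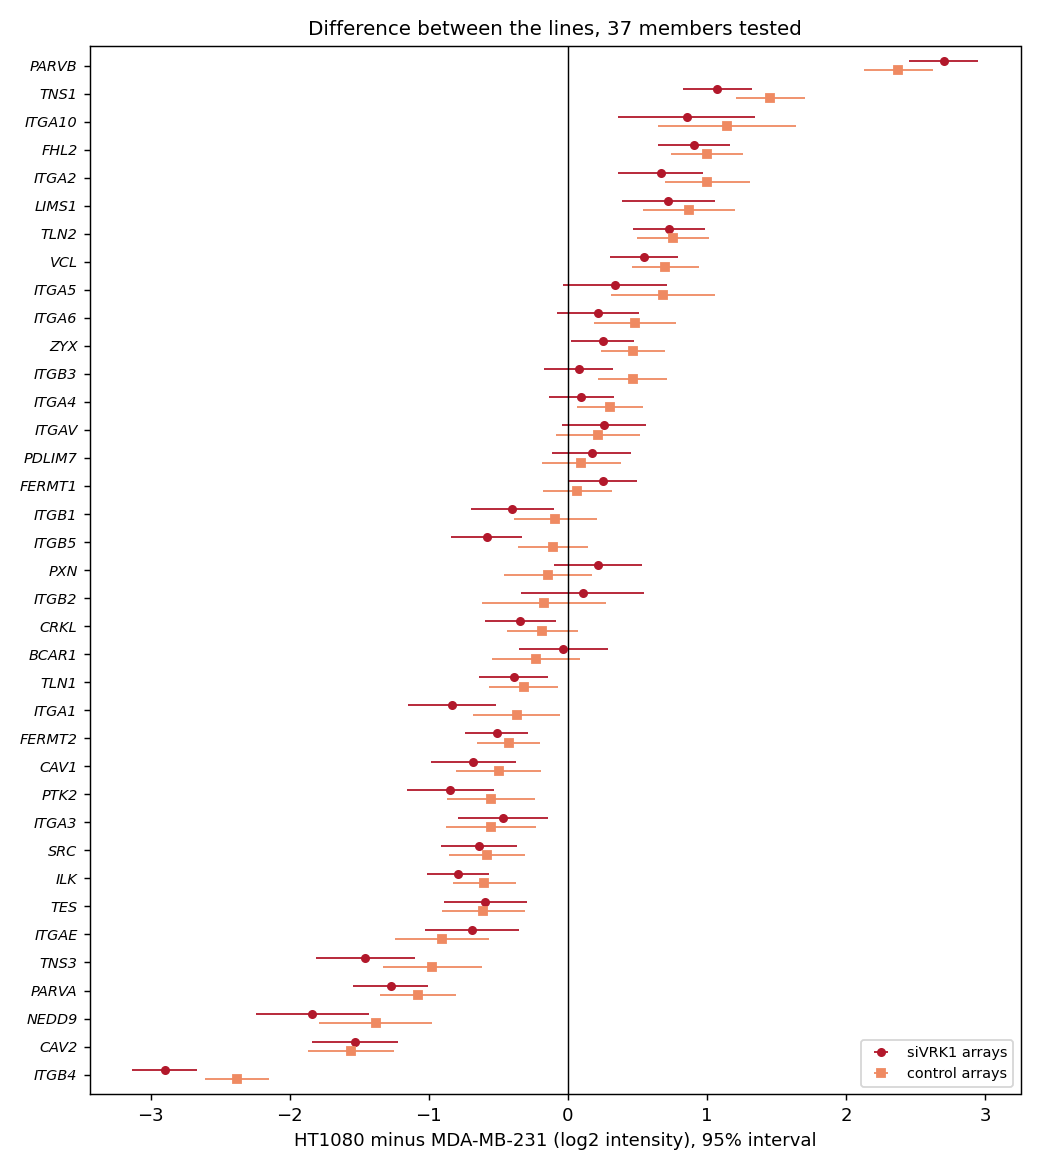
Difference in log2 intensity between the lines (horizontal axis, HT1080 minus MDA-MB-231) for the 37 members tested, between siVRK1 arrays (circles) and between control arrays (squares), with 95% intervals. PARVB lies farthest to the right and ITGB4 farthest to the left in both.

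Of the 14 integrin subunits tested, 10 differed between the control lines (71.4%), against 53.7% of all genes. This count is a description, as are those of the other kinds of protein below. ITGA2, ITGA4, ITGA5, ITGA6, ITGA10 and ITGB3 were higher in HT1080, and ITGA1, ITGA3, ITGAE and ITGB4 were lower. The largest difference of a subunit was that of ITGB4, at -2.38 (SE 0.10, adjusted p = 5.00e-08), or 5.2-fold lower in HT1080. As given above, its control arrays were between 5.68 and 5.72 in HT1080 and between 8.03 and 8.12 in MDA-MB-231. Its second kept probe read 5.81 and 5.81 in HT1080 controls, against 7.91 and 7.72 in MDA-MB-231 controls, a difference of -2.00 (adjusted p = 4.30e-07). HT1080 was thus at the floor of the array on both probes, so the fold is understated.

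The collagen-binding chains went in different directions. ITGA2, the alpha chain of a collagen receptor, read 10.09 and 9.81 in HT1080 controls, against 8.82 and 9.07 in MDA-MB-231 controls, a difference of 1.0 (SE 0.14, adjusted p = 0.000189). ITGA10, another collagen-binding chain best known from cartilage, read 7.78 and 7.68 in HT1080 controls, against 6.38 and 6.80 in MDA-MB-231 controls, a difference of 1.14 (SE 0.22, adjusted p = 0.00167). ITGA1, the third, was lower in HT1080, with 5.72 and 5.92 in HT1080 controls, against 6.06 and 6.32 in MDA-MB-231 controls. Its difference of -0.37 (SE 0.14, adjusted p = 0.0487) crossed the filter level and was lost without any 1 of the 4 HT1080 arrays or MDA-MB-231 control array 2 (adjusted p 0.0631 to 0.256). The groups did not overlap for any of these 3 chains.

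Among the laminin-binding chains, ITGA6 read 8.59 and 8.48 in HT1080 controls, against 8.10 and 8.0 in MDA-MB-231 controls. The difference was 0.48 (SE 0.13, adjusted p = 0.0113), and its second kept probe differed by 1.02 (adjusted p = 0.000133). The call was lost without MDA-MB-231 control array 2 (adjusted p = 0.0538) or HT1080 control array 1 (adjusted p = 0.0790). ITGA3, whose main ligands are also laminins, read 10.03 and 9.60 in HT1080 controls, against 10.29 and 10.45 in MDA-MB-231 controls, a difference of -0.56 (SE 0.15, adjusted p = 0.00891). Without HT1080 control array 2 that difference was -0.34 (adjusted p = 0.0838), and on the second probe it was -0.18 (adjusted p = 0.291). ITGA6 was thus higher in HT1080 while its partner ITGB4 was lower.

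The other chains included those that bind fibronectin and vitronectin. ITGA5, the alpha chain of the classical fibronectin receptor, read 8.40 and 8.44 in HT1080 controls, against 7.48 and 7.99 in MDA-MB-231 controls, a difference of 0.69 (SE 0.17, adjusted p = 0.00622). Without MDA-MB-231 control array 1 it was 0.43 (adjusted p = 0.0393). ITGB3, the beta chain of a vitronectin receptor, read 6.37 and 6.52 in HT1080 controls, against 6.0 and 5.96 in MDA-MB-231 controls, a difference of 0.47 (SE 0.11, adjusted p = 0.00562) whose call was lost without HT1080 control array 2 (adjusted p = 0.0504). ITGA4, which binds fibronectin and VCAM1, read 6.12 and 6.12 in HT1080 controls, against 5.78 and 5.86 in MDA-MB-231 controls, a difference of 0.30 (SE 0.11, adjusted p = 0.0333). Its call was lost without any 1 of the 4 control arrays (adjusted p 0.0523 to 0.123). ITGAE, known from lymphocytes that bind E-cadherin, read 8.01 and 8.14 in HT1080 controls, against 8.84 and 9.12 in MDA-MB-231 controls, a difference of -0.90 (SE 0.15, adjusted p = 0.000693). ITGB1, the common partner of most alpha chains, read 12.28 and 12.33 in HT1080 controls, against 12.31 and 12.48 in MDA-MB-231 controls, which overlap. Its second kept probe read 11.52 and 11.45 in HT1080 controls, against 11.28 and 11.03 in MDA-MB-231 controls, without overlap, a difference of 0.33 (adjusted p = 0.0626) that did not pass. On their brightest probes ITGAV, ITGB2 and ITGB5 did not pass either, with differences of 0.21, -0.17 and -0.11, but the second kept ITGB5 probe did, at -0.46 (adjusted p = 0.00845).

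**Figure D4:**
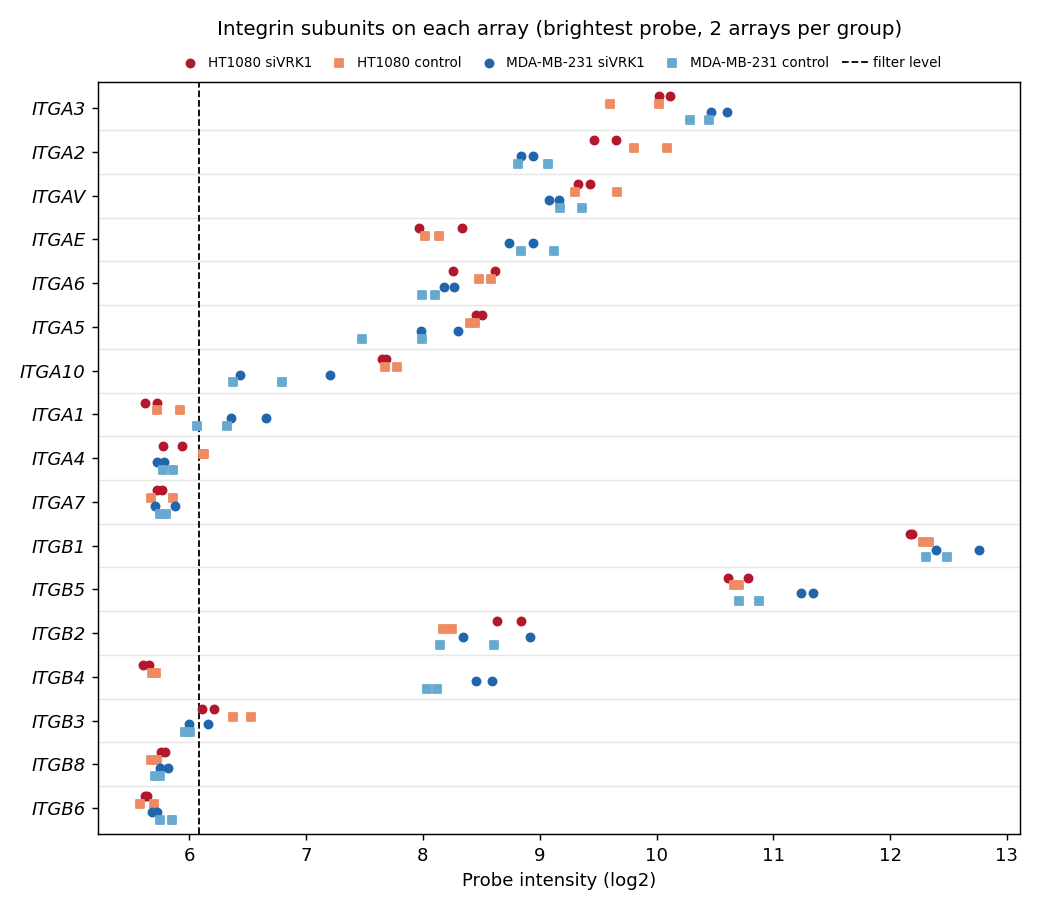
Log2 intensity (horizontal axis) of the brightest probe of each of 17 integrin subunits, 1 row each, on the 8 arrays, coloured by group, with the filter level as a dashed line. ITGB4 is above the line in MDA-MB-231 arrays and below it in HT1080 arrays, and ITGA7, ITGB6 and ITGB8 lie below it throughout. Rows are different probes, so their levels are not comparable with each other.

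Counted by the filter level, 10 subunits were above it on all 8 arrays, namely ITGA2, ITGA3, ITGA5, ITGA6, ITGA10, ITGAE, ITGAV, ITGB1, ITGB2 and ITGB5. ITGB4 was above it on the 4 MDA-MB-231 arrays and on 0 HT1080 arrays. ITGA1 was above it on 0 HT1080 arrays and on 3 MDA-MB-231 arrays, and ITGB3 on 4 HT1080 arrays and 1 MDA-MB-231 array. ITGA4 was above it on the 2 HT1080 control arrays alone. ITGA7, ITGB6 and ITGB8 were below it on all 8, at 5.58 to 5.88. Of 8 further subunits, 7 had a probe, and ITGA2B, ITGA8, ITGAD, ITGAL, ITGAM, ITGAX and ITGB7 were also below it on all arrays. ITGB2 was thus above the level in both lines while the alpha chains it is known to pair with, ITGAL, ITGAM, ITGAX and ITGAD, were below it, and ITGAE was above it while its partner ITGB7 was below. A probe under the level shows only that no signal over the array's floor was read.

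Of the 2 focal adhesion kinases tested, SRC was lower in HT1080 and the probes of PTK2 disagreed. SRC, which phosphorylates adaptors at adhesions, read 7.84 and 7.80 in HT1080 controls, against 8.29 and 8.51 in MDA-MB-231 controls, a difference of -0.58 (SE 0.12, adjusted p = 0.00285). PTK2, which encodes focal adhesion kinase, differed by -0.55 (adjusted p = 0.00775) on its brightest probe and by 0.19 (adjusted p = 0.172) on its second, so its direction is not settled. PTK2B, the related kinase, was below the filter level in every group.

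Of the 6 linkers, 2 were higher and 3 lower in HT1080, and the 2 talins, the proteins that activate integrins from inside the cell, did so in opposite directions. TLN2 read 6.99 and 6.80 in HT1080 controls, against 6.21 and 6.08 in MDA-MB-231 controls, a difference of 0.76 (SE 0.12, adjusted p = 0.000423), while TLN1 differed by -0.32 (adjusted p = 0.0354). TNS1 read 7.26 and 7.38 in HT1080 controls, against 5.93 and 5.79 in MDA-MB-231 controls, a difference of 1.46 (SE 0.11, adjusted p = 3.39e-06). TNS3 read 8.65 and 8.84 in HT1080 controls, against 9.53 and 9.90 in MDA-MB-231 controls, a difference of -0.97 (SE 0.16, adjusted p = 0.000602). The groups did not overlap for TLN2 or either tensin. The kindlin FERMT2 differed by -0.42 (adjusted p = 0.00556), and FERMT1 did not pass, at 0.07.

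The 2 parvins, actin-binding partners of ILK, also went opposite ways. By brightest probes PARVB had the largest difference of any member in favour of HT1080, 2.37 (SE 0.11, adjusted p = 7.92e-08) or 5.18-fold, with 8.0 and 8.08 in HT1080 controls, against 5.77 and 5.56 in MDA-MB-231 controls. Its second kept probe read 6.13 and 5.94 in HT1080 controls, against 5.82 and 5.82 in MDA-MB-231 controls, a difference of 0.22 (adjusted p = 0.154) close to the floor. With the mean of the kept probes the PARVB difference was 1.29, under that of TNS1 at 1.46. MDA-MB-231 was under the filter level on both PARVB probes, so the fold is understated. PARVA read 6.13 and 6.08 in HT1080 controls, against 7.22 and 7.15 in MDA-MB-231 controls, a difference of -1.08 (SE 0.12, adjusted p = 4.86e-05). On the brightest probes, HT1080 controls thus had PARVB well above the filter level and PARVA near it. MDA-MB-231 controls had PARVA above the level and PARVB below it. ILK itself, the scaffold of the complex, read 10.57 and 10.67 in HT1080 controls, against 11.25 and 11.20 in MDA-MB-231 controls, a difference of -0.60 (SE 0.10, adjusted p = 0.000687), and -0.72 on its second probe. LIMS1, which encodes PINCH1, read 7.49 and 7.10 in HT1080 controls, against 6.53 and 6.32 in MDA-MB-231 controls, a difference of 0.87 (SE 0.15, adjusted p = 0.000785). LIMS2 was below the filter level.

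**Figure D5:**
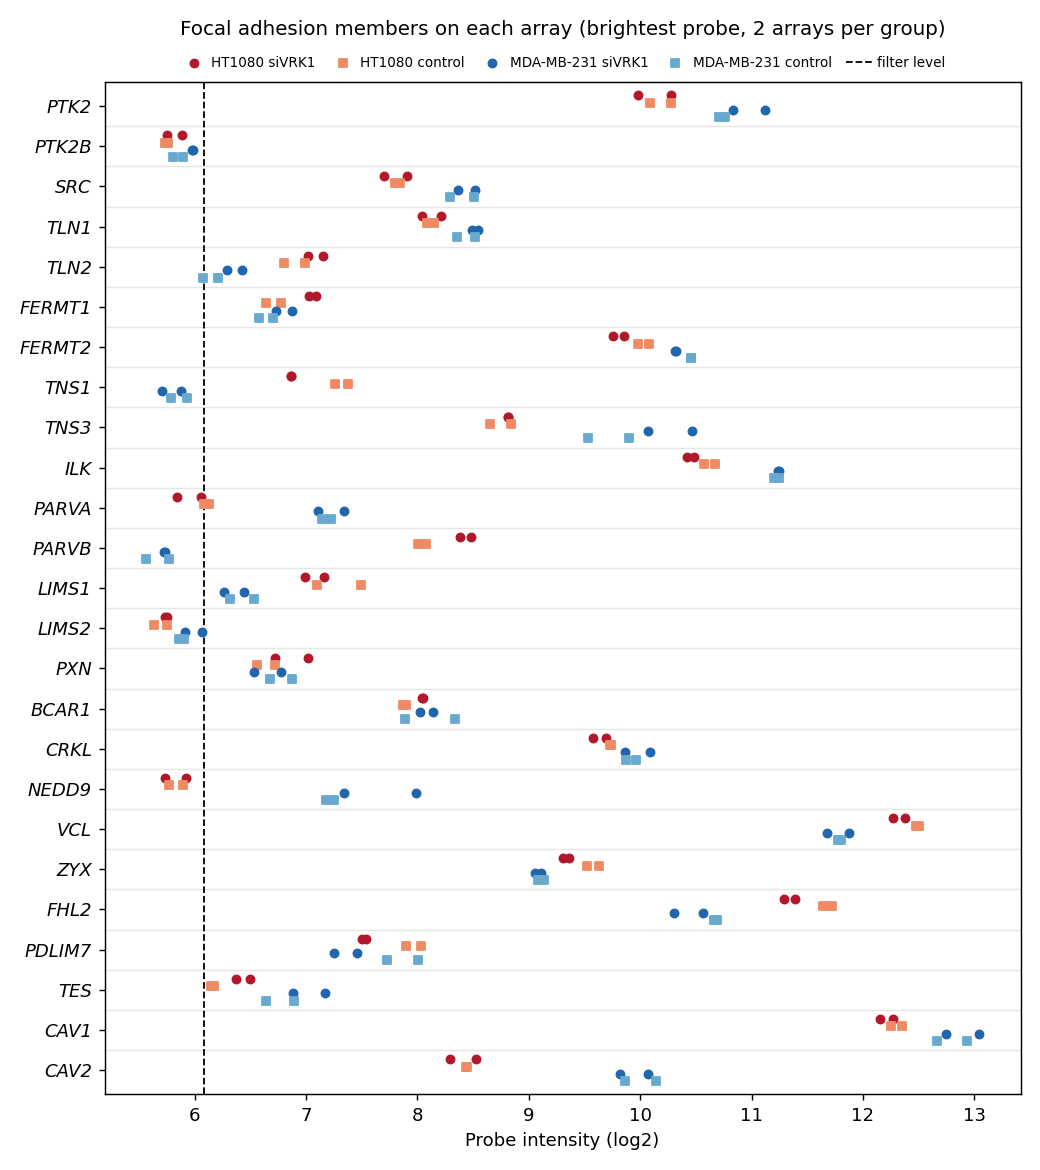
Log2 intensity (horizontal axis) of the brightest probe of each of the 25 other focal adhesion members, 1 row each, on the 8 arrays, coloured by group, with the filter level as a dashed line. PARVB and TNS1 are higher in HT1080 arrays, and PARVA, NEDD9, TNS3 and CAV2 are higher in MDA-MB-231 arrays.

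Of the 4 adaptors tested, NEDD9 alone differed between the control lines. It read 5.77 and 5.9 in HT1080 controls, against 7.18 and 7.25 in MDA-MB-231 controls, a difference of -1.38 (SE 0.18, adjusted p = 0.000146) with HT1080 at the floor. BCAR1, which encodes p130Cas, the adaptor CRKL and paxillin, PXN, differed by -0.23, -0.18 and -0.14 and did not pass.

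Of the 5 proteins on the actin side, 3 were higher in HT1080 and 1 was lower. Vinculin, VCL, which reinforces the link between talin and actin, read 12.47 and 12.50 in HT1080 controls, against 11.78 and 11.80 in MDA-MB-231 controls, a difference of 0.70 (SE 0.11, adjusted p = 0.000422). FHL2 read 11.64 and 11.72 in HT1080 controls, against 10.67 and 10.69 in MDA-MB-231 controls, a difference of 1.0 (SE 0.12, adjusted p = 6.04e-05). Zyxin, ZYX, a LIM protein recruited to tensed adhesions, differed by 0.47 (adjusted p = 0.00331). The second probes of these 3 genes differed in the same direction, by 0.88, 1.46 and 0.52. TES, a LIM protein that binds zyxin, read 6.15 and 6.17 in HT1080 controls, against 6.64 and 6.89 in MDA-MB-231 controls, a difference of -0.61 (SE 0.13, adjusted p = 0.00337). PDLIM7 did not differ past the threshold, at 0.10.

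Both caveolins, coat proteins of the membrane pits called caveolae, were lower in HT1080. CAV2 read 8.45 and 8.44 in HT1080 controls, against 10.14 and 9.86 in MDA-MB-231 controls, a difference of -1.56 (SE 0.14, adjusted p = 8.95e-06), and CAV1 differed by -0.50 (adjusted p = 0.0117). The second CAV2 probe differed by -0.69.

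The comparison of siVRK1 HT1080 with siVRK1 MDA-MB-231 took its group means from the other 4 arrays. Both comparisons of the lines came from the same fit and shared its estimate of spread, so their p-values are not independent. Between siVRK1 arrays, 26 of the 37 members were called, 8 higher and 18 lower in HT1080, against 55.5% of all genes, 27.4% higher and 28.1% lower. Of these 26, 23 (88.5%) were also called between the controls, and they were 82.1% of the 28 called there, all 23 with the same direction. The share of all genes called in both comparisons was not counted, so this overlap only describes the members. ITGB4 differed by -2.90 (adjusted p = 1.20e-08) and PARVB by 2.70 (adjusted p = 3.15e-08). By their brightest probes, ITGA4, ITGA5, ITGA6, ITGB3 and ZYX were called between the controls alone, with differences of 0.10, 0.34, 0.22 and 0.08 for the 4 integrins in siVRK1 arrays. The second probes of ITGA6 and ZYX passed there too, at 0.52 (adjusted p = 0.00791) and 0.37 (adjusted p = 0.0253). By the same probes ITGB1, ITGB5 and CRKL were called between siVRK1 arrays alone, at -0.40 (adjusted p = 0.0271), -0.58 (adjusted p = 0.00162) and -0.34 (adjusted p = 0.0270). The second ITGB1 probe differed by -0.01 there, and the second ITGB5 probe passed between siVRK1 arrays (-0.31, adjusted p = 0.0474) as well as between the controls. No member passed the test of whether the line difference depended on siVRK1, which is the same test as that of the difference in response above.

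Further genes of the same system were read from wider lists. As with the members, a gene bright in only 1 line entered the test of the lines through that line and had to differ. The shares called between the lines are therefore descriptions. Of the genes named below, SPP1, MYLK, EDIL3, CAVIN3, APBB1IP and CD9 were under the filter level in 1 control line. Their differences are understated. Calls in these lists were not retested with single arrays left out. Of 32 ligands of integrins, 20 were tested. COL4A1, a chain of basement membrane collagen, rose with siVRK1 in MDA-MB-231, with 8.25 and 8.18 in siVRK1 arrays, against 7.45 and 7.23 in controls. The change was 0.88 (SE 0.12, adjusted p = 0.0117), and in HT1080, where it read 10.39 and 10.49 with siVRK1, against 10.43 and 10.56 in controls, it was -0.05. COL4A1 was the 1 ligand of the 20 called in MDA-MB-231 (5%), against 0.995% of all genes. In HT1080 0 were called, against 0.307% of all genes. Between the control lines 15 of the 20 ligands were called, 10 higher and 5 lower in HT1080, against 53.7% of all genes. The largest were COL4A1 at 3.15 (adjusted p = 1.51e-08), the laminin chain LAMB3 at 2.05 (adjusted p = 8.60e-06) and osteopontin, SPP1, at 1.89 (adjusted p = 2.42e-07). On the other side were the laminin chain LAMA5 at -1.74 (adjusted p = 5.29e-07), thrombospondin, THBS1, at -0.79 and EDIL3 at -0.71.

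Of 56 further adhesion adaptors and signalling genes, 48 were tested, and 0 passed in either line with siVRK1. The share of all genes called was 0.307% in HT1080 and 0.995% in MDA-MB-231. In the average of the lines 2 of the 48 passed (4.17%), against 2.54% of all genes. ROCK1, a kinase that raises actomyosin tension, fell by 0.74 in that average (SE 0.11, adjusted p = 0.00836). ROCK1 read 6.48 and 6.27 in HT1080 siVRK1 arrays, against 7.23 and 7.12 in controls, and 6.77 and 6.49 in MDA-MB-231 siVRK1 arrays, against 7.48 and 7.12 in controls. CDC42, a small GTPase that drives filopodia, rose by 0.55 (SE 0.12, adjusted p = 0.0477). CDC42 read 8.12 and 8.14 in HT1080 siVRK1 arrays, against 7.62 and 7.57 in controls, and 8.97 and 8.83 in MDA-MB-231 siVRK1 arrays, against 8.03 and 8.64 in controls. The second kept CDC42 probe changed by 0.23 on average. Between the control lines that probe differed by 0.94 and the brightest by -0.74, so the direction of that difference is not settled. On the brightest probes the siVRK1 and control arrays did not overlap for either gene in either line. Between the control lines 32 of the 48 (66.7%) were called by brightest probes, 13 higher and 19 lower in HT1080, against 53.7% of all genes. MYLK, EVL and TRIP6 were the farthest above, at 1.60, 1.5 and 1.18, and CAVIN3, a coat protein of caveolae, APBB1IP, which brings talin to integrins, and YES1 the farthest below, at -4.78 (adjusted p = 2.63e-09), -2.59 and -1.59.

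All 14 membrane partners of integrins were tested, and 0 passed within a line with siVRK1. In the average 2 of the 14 passed (14.3%), against 2.54% of all genes. The tetraspanin CD82, which is known to restrain cell migration, fell by 0.81 in that average (SE 0.12, adjusted p = 0.00880). CD82 read 7.92 and 8.10 in HT1080 siVRK1 arrays, against 8.91 and 8.86 in controls, and 8.77 and 8.45 in MDA-MB-231 siVRK1 arrays, against 9.59 and 9.11 in controls. The second kept CD82 probe changed by -0.45 on average, from -0.32 in HT1080 and -0.57 in MDA-MB-231. PLAUR, the urokinase receptor, fell by 0.45 (SE 0.08, adjusted p = 0.0204), with every siVRK1 array below every control of its line. PLAUR read 9.72 and 9.87 in HT1080 siVRK1 arrays, against 10.20 and 10.33 in controls, and 8.71 and 8.84 in MDA-MB-231 siVRK1 arrays, against 9.19 and 9.23 in controls. Between the control lines 9 of the 14 (64.3%) were called, 5 higher and 4 lower in HT1080, against 53.7% of all genes. SDC1, PLAUR and CD44 were the farthest above, at 1.40, 1.06 and 0.88, and galectin 3, LGALS3, CD9 and SLC3A2 the farthest below, at -2.67, -2.11 and -0.83.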

How the data were processed

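Total RNA from 2 human cell lines was hybridised to Illumina HumanRef arrays. The values used are the log2 intensities the authors deposited for 24526 probes on 8 arrays, made with GenomeStudio per the submitters' processing notes. Their background correction and normalization are not given in the sources used here, and all 8 columns have nearly the same distribution (largest gap between percentiles 0.003 log2), so none was added. No detection p-value was used, and slide and scan are not known here.

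Probes were named by the platform annotation: 21834 had 1 gene symbol, 0 several and 2692 none. All 21834 were found in the RefSeq table of GRCh38.p14, and 17 symbols were updated. Probes whose highest group mean reached the median of such means (6.08 log2) were kept, 12263 in all, of which 1103 were unnamed, and the brightest kept probe stood for each gene.

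A model of 4 group means was fitted to all 8 arrays with limma 3.58.1 (lmFit and eBayes) in R 4.3.3, with 4 residual and 5.86 prior degrees of freedom. Benjamini-Hochberg adjustment ran over 9449 genes, and a gene was called at an adjusted p under 0.05. The computation of the fit was tested on simulated data with known changes and independent noise drawn from the fit's own variances. That cannot show whether the model suits these arrays. Replicate numbers gave correlations of deviations of -0.05 in HT1080 and 0.49 in MDA-MB-231, and the labels state no pairing, so no pairing was used. Genes named are every member called with siVRK1, or the 5 with the smallest p where fewer than 3 were called, the 10 largest called differences between lines in each direction, subunits crossing the filter level, and the 3 largest calls of each wider list. Members and lists were chosen with earlier results of these data known. ITGB2 was singled out after its values were seen.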

Additional observations from a re-analysis of the deposited data

How the results depend on the processing

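The number of members called with siVRK1 was 0 in HT1080, and 0 for the difference between lines, under all alternatives run. In MDA-MB-231 it was 0 except with the replicate number as a block (4: ITGB4 and ITGB5, adjusted p = 0.0483 each, TNS3 0.0251, PDLIM7 0.0311) and ranged from 0 to 1 when 1 array was left out, the 1 being NEDD9 at 0.77 (adjusted p = 0.0486) without MDA-MB-231 siVRK1 replicate 2; without replicate 1 it was 0.13 (adjusted p = 0.828). For the average of the lines it was 0 with the mean of the kept probes and when a 1.5-fold change was required, 3 with the replicate block (PDLIM7, ITGB2 and TNS3), and 0 to 1 without 1 array. The same-numbered arrays have no stated pairing, and the block moved the count over all genes to 297 in MDA-MB-231, 66 in HT1080 and 501 for the average, against 94, 29 and 240. It gave 28 members between the control lines, the same number as without it. Between the control lines 17 members were called when a 1.5-fold difference was required, 21 to 28 without 1 array and 25 to 28 otherwise; between siVRK1 arrays the range was 19 to 27. Over all genes, the calls fell to 26 in MDA-MB-231 and 11 in HT1080 with background subtracted, were 48 and 108 with array weights, 0 and 84 with each line fitted alone, and 2991 between control lines at 1.5-fold. The VRK1 change ranged without 1 array from -1.54 to -1.03 in MDA-MB-231 and from -1.35 to -1.29 in HT1080, and in a fit of the 4 MDA-MB-231 arrays by themselves it was -1.28 (adjusted p = 0.292). No named member changed direction. Of 388 values for 23 members between the lines, 15 lost the call. With siVRK1 there were 197 values for 11 pairs of a member and a comparison, PDLIM7 being counted in each line and in the average. Of the 197, 7 lost the call, all for PDLIM7 in the average, and 5 gained it. The cause of these changes was not tested. With 2 arrays a group and no background correction, changes of dim probes are the least certain.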
